A study of Mus musculus with 10 samples.

Results

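Striatal projection neurons, also called medium spiny neurons, are the principal cells of the striatum, and 9 genes known for their expression in these cells were described on 10 dual dye arrays of mouse hemibrain RNA. The genes are Drd1, Drd2, Adora2a, Gpr6, Adcy5, Pde10a, Ppp1r1b, Rasd2 and Rarb. They were taken by name, with each non-control probe whose RefSeq accession belongs to them, which gave 12 probes of 41174. The 9 genes are among the 18539 that could be named, and probes with other accessions were not searched. Adora2a, Adcy5 and Pde10a have 2 probes each that were named in this way, and the other genes have 1.

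Striatal projection neurons receive dopamine from the midbrain and read it through cAMP. Cells of the direct pathway carry the D1 receptor, which raises cAMP, and cells of the indirect pathway carry the D2 receptor, which lowers it, together with the adenosine receptor encoded by Adora2a, which raises it. Adenylyl cyclase 5 makes the cAMP, the phosphodiesterase PDE10A breaks it down, and DARPP-32, the product of Ppp1r1b, carries the signal on to protein phosphatase 1.

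Each array held RNA of 1 left hemibrain from its own male C57BL/6J mouse, single-housed on its diet from 3 weeks of age for 20 weeks and killed at 5 months. Hemibrain RNA carried the Cy-5 dye and another RNA the Cy-3 dye, and each probe therefore gave a ratio of the hemibrain to that other RNA, printed here as log2 Cy-5/Cy-3. The labels call all 10 Cy-5 samples FD, the n-3 PUFA enriched diet, and the Cy-3 RNA a pool of hemibrains on SD, the standard lab diet. The methods instead name arrays of both diets, fewer than 10 in all, hybridized with a reference RNA that was bought. Which of the 10 arrays the paper used could not be told. The diets of the arrays were thus not settled and FD was not compared with SD. A whole hemibrain holds the striatum beside all other regions, so that fewer striatal cells and less RNA per cell cannot be told apart in any value below.

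The Cy-3 RNA did not look like brain at the marker genes. All 6 proliferation genes were lower in Cy-5 than in Cy-3, with mean log2 ratios from -7.67 to -3.18, and all 6 pan-neuronal genes were higher in Cy-5, with mean log2 ratios from 2.21 to 7.52. The oligodendrocyte and astrocyte genes were higher in Cy-5 as well, 6 of 6 in each list. Of the 6 cerebellar genes 5 were higher in Cy-5, and the other, Gabra6, cleared the Cy-5 background on 1 array of 10. Over all genes 41.0% were higher and 39.8% lower in Cy-5. The array of animal C10-434 stood apart in brightness, where 49.8% of probes cleared the Cy-5 background, compared with 68.2% to 76.9% elsewhere, and the median Cy-5 signal was 28.5, compared with 60.0 to 171 elsewhere. The arrays lay on 4 slides: 4 arrays on slide A (C10-415, C10-416, C10-417 and C10-423), 4 on slide B (C10-424, C10-425, C10-434 and C10-435), and C10-413 and C10-437 alone on a slide each.

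The regulatory sequence in front of the receptors and of Rarb is shown to place these genes in the genome and because its motifs differ. The table of RefSeq promoters (GRCm38.p6) held 7 of the 9 genes, with 9 start sites. The 250 bases before the start were searched on both strands for the cAMP response element TGACGTCA, for a retinoic acid response element made of the direct repeats GGTTCA and AGTTCA with any 5 bases between them, for the GC box GGGGCGGGG and for the TATA box TATAAA. Matches are in capitals below, and each line reads 5′ to 3′ on the strand of the gene.
Drd1, first start, chr13:54055659-54055908, minus strand: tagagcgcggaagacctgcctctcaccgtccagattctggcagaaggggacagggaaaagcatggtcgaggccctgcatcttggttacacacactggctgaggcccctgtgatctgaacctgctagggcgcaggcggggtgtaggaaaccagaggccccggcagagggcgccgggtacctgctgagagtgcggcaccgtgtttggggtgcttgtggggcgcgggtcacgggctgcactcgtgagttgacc
Drd1, second start, chr13:54054781-54055030, minus strand: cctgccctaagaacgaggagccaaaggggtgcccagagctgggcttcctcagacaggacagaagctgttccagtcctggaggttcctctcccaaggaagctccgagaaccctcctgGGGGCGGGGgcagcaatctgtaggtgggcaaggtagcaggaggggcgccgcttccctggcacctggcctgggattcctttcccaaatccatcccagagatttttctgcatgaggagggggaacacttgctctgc
Drd2, chr9:49340153-49340402, plus strand: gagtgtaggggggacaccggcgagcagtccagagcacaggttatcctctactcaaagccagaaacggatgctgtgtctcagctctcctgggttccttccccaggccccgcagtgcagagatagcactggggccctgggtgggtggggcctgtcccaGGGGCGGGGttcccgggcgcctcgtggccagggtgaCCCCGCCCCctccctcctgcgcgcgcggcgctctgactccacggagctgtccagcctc
Gpr6, chr10:41072291-41072540, minus strand: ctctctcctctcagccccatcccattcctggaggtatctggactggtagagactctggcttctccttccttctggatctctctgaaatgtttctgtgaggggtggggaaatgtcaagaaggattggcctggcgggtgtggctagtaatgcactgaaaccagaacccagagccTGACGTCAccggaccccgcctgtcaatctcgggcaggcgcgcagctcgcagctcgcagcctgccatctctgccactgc
Rarb, chr14:16575477-16575726, minus strand: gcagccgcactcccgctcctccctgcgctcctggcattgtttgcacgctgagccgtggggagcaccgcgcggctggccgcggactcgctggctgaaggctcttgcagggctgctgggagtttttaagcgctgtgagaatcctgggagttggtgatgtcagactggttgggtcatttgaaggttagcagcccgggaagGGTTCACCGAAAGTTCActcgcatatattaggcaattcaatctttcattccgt

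Rarb, which encodes a retinoic acid receptor, holds the direct repeat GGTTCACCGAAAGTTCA, with its first base 53 bases before the start. This motif was found in 2 of 32851 promoters, or 0.00609%. The repeats searched have exactly the letters of the Rarb promoter, so its match was fixed in advance. Variants of the element were not searched, and the share does not tell how rare such elements are. Gpr6 holds the cAMP response element 78 bases before its start, a motif present in 1.55% of all promoters. Drd2 holds the GC box on its own strand 94 bases before the start and on the opposite strand 58 bases before it, and the second start of Drd1 holds it 134 bases before. The GC box was present in 10.4% of all promoters, and among the other genes described Adcy5 holds it as well. The letters TATAAA, present in 12.4% of all promoters, occur in none of the 9 windows. The arrays measured RNA and not promoter use, and a match is a description of the letters.

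The first comparison asked how much of each transcript the hemibrain RNA held against the Cy-3 RNA. All 12 probes were higher in Cy-5 (limma, Benjamini-Hochberg adjusted p of 0.00363 or less over all probes), a call that 37.4% of all probes received. At least 4-fold higher were 10 of the 12 probes, against 11.6% of all probes. The median over the 9 genes, each by its brightest probe, was 2.68 on the log2 scale, and the median over all named genes was 0.04. Every one of the 12 probes lay above 0 on each of the 10 arrays.

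**Figure D1:**
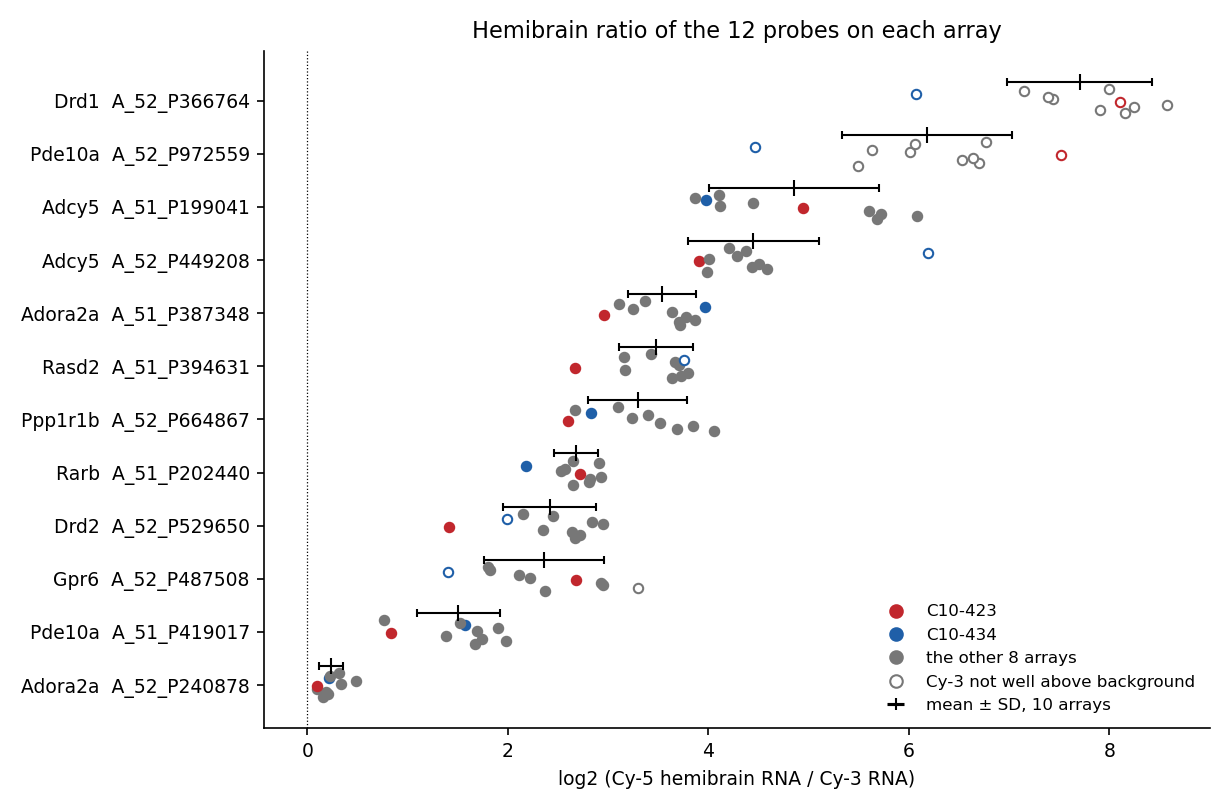
Log2 Cy-5/Cy-3 (horizontal axis) of the 12 probes, 1 point per array; the black tick and bar give the mean and SD of 10 arrays, red marks C10-423, blue C10-434, and open points mark Cy-3 signals not well above background. All points lie above 0, from means of 0.23 for Adora2a probe A_52_P240878 to 7.70 for Drd1.

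Drd1, the D1 dopamine receptor of the direct pathway, was higher in Cy-5. The size of its ratio was not measured, since its Cy-3 signal did not clear the background. The log2 ratio of its probe A_52_P366764 ran from 6.07 on C10-434 through a median of 7.95 to 8.57 on C10-417, with a mean of 7.70 ± 0.72 (SD, n = 10; SE of the limma fit 0.20, adjusted p = 1.89e-12). The Cy-5 signal lay between 951.5 and 2540 and was well above background on 10 of 10 arrays, while the Cy-3 signal lay between 6.31 and 14.2 and was well above background on 0 of 10. With the weakest Cy-3 signal still well above background on each array in place of its own, Drd1 was 49.8-fold higher in Cy-5. That signal is the weakest over all probes, and the limit of the Drd1 spot itself may lie higher. The value is therefore rough and not a strict bound. On the scale of each dye alone, less the median of its array, the Cy-5 level of Drd1 spanned 0.60 log2 units over the 10 hemibrains and the Cy-3 level 1.96. Most of the spread in the ratio of Drd1 thus came with a Cy-3 signal that was not measured above background, and its Cy-5 level was the least variable of the 12 probes.

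Drd2, the D2 dopamine receptor of the indirect pathway, had a lower ratio and a measured Cy-3 signal. Its log2 ratio ran from 1.42 on C10-423 through a median of 2.54 to 2.95 on C10-424, with a mean of 2.42 ± 0.46 (SD, n = 10; adjusted p = 2.98e-09 by limma), or 5.34-fold. C10-423 lay lowest and C10-434 next to lowest, at 1.99, and the other 8 arrays lay between 2.15 and 2.95. The Cy-5 signal ran from 194.8 to 1298, and Cy-3, from 49.1 to 203.3, was well above background on 9 of 10 arrays, with C10-434 the exception. The Cy-5 level spanned 1.59 log2 units, against 0.60 for Drd1.

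Adora2a, an adenosine receptor gene, is a marker of the indirect pathway, and its 2 probes did not give the same ratio. Probe A_51_P387348 ran from 2.96 on C10-423 through a median of 3.67 to 3.97 on C10-434, with a mean of 3.54 ± 0.34 (SD, n = 10; adjusted p = 5.87e-12 by limma). Probe A_52_P240878, the brighter by its mean over both dyes, ran from 0.10 to 0.49 with a mean of 0.23 ± 0.12 (SD, n = 10; adjusted p = 0.00363 by limma). The groups of 10 values do not overlap between the 2 probes. Both probes were well above background in both dyes on all 10 arrays, and the Cy-3 signal was 217.0 to 704 at the first probe and 1664 to 3374 at the second. Within slide A alone the second probe had a mean log2 ratio of 0.15 and was not called (limma adjusted p = 0.312).

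Gpr6, an orphan receptor that raises cAMP and is enriched in indirect pathway neurons, was 5.13-fold higher in Cy-5. Its log2 ratio ran from 1.40 on C10-434 through a median of 2.30 to 3.29 on C10-415, with a mean of 2.36 ± 0.60 (SD, n = 10; adjusted p = 4.1e-08 by limma). The Cy-5 signal lay between 129.2 and 815.6 and was well above background on 9 of 10 arrays, and the Cy-3 signal lay between 49.0 and 158.0 and was so on 8. Its 4 lowest ratios fell on C10-434, C10-437, C10-435 and C10-425.

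Adcy5, the main adenylyl cyclase of striatal projection neurons, was higher in Cy-5 at both probes by similar amounts. Probe A_51_P199041 ran from 3.87 on C10-435 through a median of 4.70 to 6.08 on C10-415, with a mean of 4.85 ± 0.85 (SD, n = 10; adjusted p = 7.32e-10 by limma). Probe A_52_P449208 ran from 3.90 on C10-423 through a median of 4.33 to 6.19 on C10-434, with a mean of 4.45 ± 0.65 (SD, n = 10; adjusted p = 1.41e-10 by limma). On C10-434 the Cy-3 signal of the second probe was 18.1 and not well above background, and on the other 9 arrays it was 117.2 to 449.0. Without C10-434 the mean log2 ratio of the second probe was 4.25.

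Pde10a encodes the phosphodiesterase that degrades cAMP and cGMP in both kinds of striatal projection neuron. Probe A_51_P419017 ran from 0.76 on C10-437 through a median of 1.62 to 1.98 on C10-415, with a mean of 1.51 ± 0.41 (SD, n = 10; adjusted p = 1.38e-07 by limma), or 2.84-fold. Probe A_52_P972559 ran from 4.47 on C10-434 through a median of 6.30 to 7.52 on C10-423, with a mean of 6.18 ± 0.85 (SD, n = 10; adjusted p = 6.22e-11 by limma). The Cy-3 signal of this second probe, 7.58 to 17.4, was well above background on 0 of 10 arrays. With the replacement used for Drd1 the difference was 20.3-fold, again a rough value. The probes also ordered the hemibrains differently, since C10-423 was next to lowest at the first probe (0.84) and highest at the second.

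Ppp1r1b, which encodes DARPP-32, had a log2 ratio from 2.60 on C10-423 through a median of 3.32 to 4.06 on C10-413. The mean was 3.29 ± 0.50 (SD, n = 10; adjusted p = 2.42e-10 by limma), or 9.81-fold, with both dyes well above background on all 10 arrays. Its Cy-5 signal, from 1205 to 9389, gave the widest Cy-5 level of the 12 probes, 2.65 log2 units between C10-423 and C10-413.

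Rasd2, which encodes the striatal GTPase Rhes, had a log2 ratio from 2.67 on C10-423 through a median of 3.66 to 3.80 on C10-416. The mean was 3.47 ± 0.37 (SD, n = 10; adjusted p = 1.23e-11 by limma), or 11.1-fold. The Cy-5 signal, 577.4 to 6133, and the Cy-3 signal, 42.6 to 491.6, moved together: on C10-413 the Cy-5 level lay 0.97 and the Cy-3 level 1.04 log2 units above the median of the 10 arrays, and on C10-434 they lay at -1.26 and -1.45. The 10 ratios spanned 1.14 log2 units, whereas the Cy-5 levels spanned 2.41.

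Rarb, the retinoic acid receptor beta, had the steadiest ratio after the second Adora2a probe. It ran from 2.18 on C10-434 through a median of 2.68 to 2.93 on C10-417, with a mean of 2.68 ± 0.22 (SD, n = 10; adjusted p = 4.83e-12 by limma). Its probe A_51_P202440 was printed on 10 spots per array, which gives the error within an array: the SD over spots ran from 0.05 on C10-417 to 0.21 on C10-434, with a median of 0.12. The SD over the 10 array means was 0.22, and 0.14 without C10-434. The standard error of an array mean from its own spots ran from 0.02 to 0.07, with a median of 0.04, and the SD over the array means was larger than each of these. The other 11 probes have 1 spot per array, and their error within an array was not measured.

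**Figure D2:**
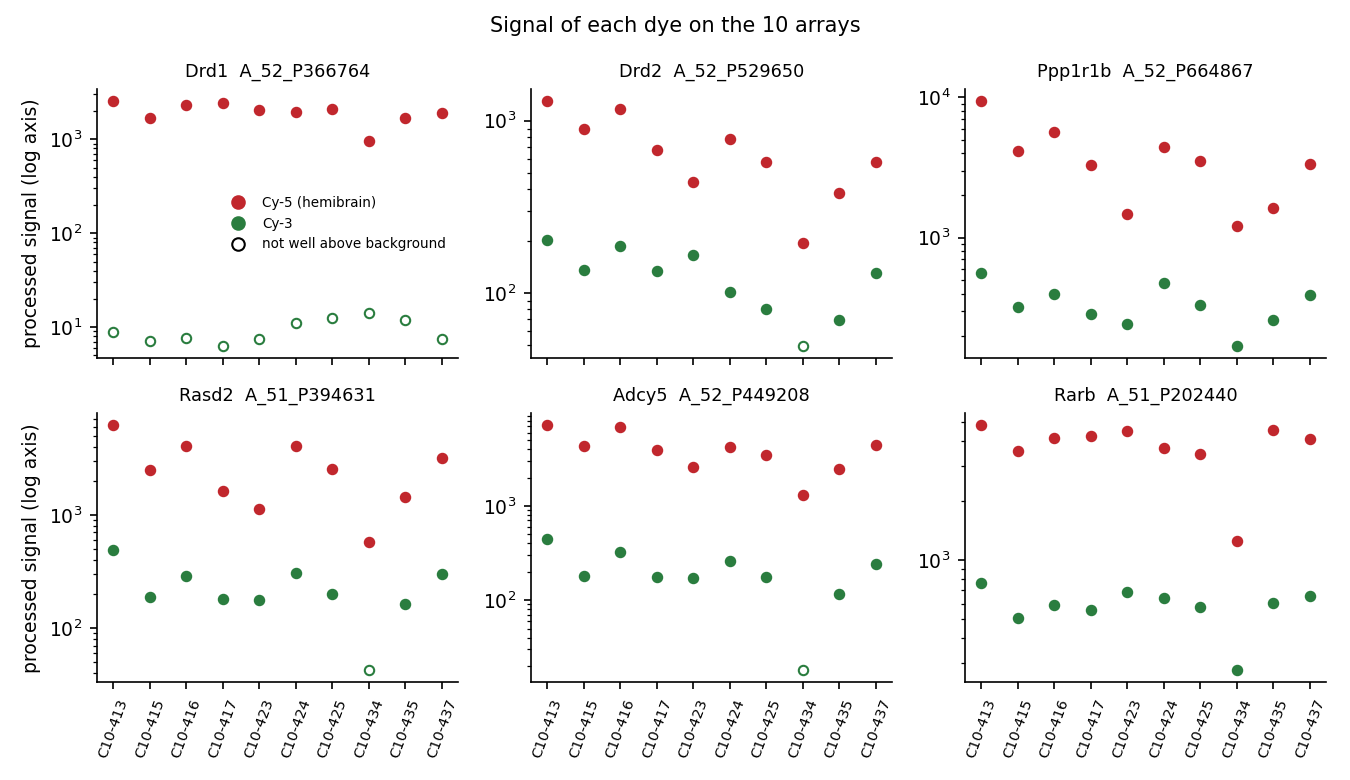
Processed signal of Cy-5 (red) and Cy-3 (green) on each of the 10 arrays, on a log axis, for Drd1, Drd2, Ppp1r1b, Rasd2, Adcy5 probe A_52_P449208 and Rarb; open points were not well above background. The Cy-3 signal of Drd1 stays between 6.31 and 14.2, and both dyes of Rasd2 rise and fall together between arrays.

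Ordered by mean ratio, the 9 genes ran Drd1, Adcy5, Rasd2, Ppp1r1b, Rarb, Drd2, Gpr6, Pde10a and Adora2a, each by its brightest probe. These are differences between the dyes and not levels, and the size of that of Drd1 was not measured. The places of Pde10a and Adora2a depended on the probe, since their other probes had means of 6.18 (again with no measured Cy-3 signal) and 3.54. The ranges over the arrays overlapped between all neighbours except Adcy5 and Rasd2, and Pde10a and Adora2a. Such ranges leave out that the genes share the arrays, and the order within arrays was not tested. Drd1 lay above Adcy5 on every array although their ranges overlapped. The background correction set the size of these ratios. With normexp and an offset of 50, which draws weak signals towards a ratio of 0, the 12 mean log2 ratios lay between 0.34 and 2.96 and that of Drd1 was 2.87 in place of 7.70, below the 2.96 of Adcy5 probe A_51_P199041, and with plain subtraction, a floor and the same offset that of Drd1 was 4.04 beside 4.02 for Adcy5. All 12 probes were called under both.

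The 2 slides that hold 4 arrays each were compared next, as a check of the batch. Slide, animal and any diet cannot be told apart in this comparison. None of the 12 probes was called on the ratio (limma, 0 of 12 at adjusted p under 0.05, 4 of 12 at an unadjusted p under 0.05), where 0.0755% of all probes were called and 9.92% had such an unadjusted p. The 4 probes were lower on slide B: Adcy5 probe A_51_P199041 by -1.49 ± 0.25 (SE; adjusted p = 0.0697 by limma), Pde10a probe A_52_P972559 by -1.30 ± 0.38, Drd1 by -1.20 ± 0.31 and Gpr6 by -1.07 ± 0.22. At this Adcy5 probe the 4 arrays of slide A lay between 4.95 and 6.08 and those of slide B between 3.87 and 4.44. The other probes of Adcy5 and Pde10a differed by 0.36 ± 0.44 and 0.19 ± 0.25 (SE), with arrays that overlapped. At Drd1 slide A lay between 7.91 and 8.57 and slide B between 6.07 and 7.44. The arrays of the slides did not overlap at 5 of the 12 probes, these 4 and Adora2a probe A_52_P240878, a pattern found at 5.65% of all probes.

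Each dye was then taken alone. With the Cy-5 signal alone, less the median of its array, 0 of 12 probes were called between the slides (4.14% of all probes), and the 4 probes differed by -0.34 to -0.19. With the Cy-3 signal alone 4 of 12 were called, a share near that of all probes (28.7%). Cy-3 was higher on slide B by 1.29 ± 0.14 (SE; adjusted p = 0.00147 by limma) at Adcy5 probe A_51_P199041, by 0.98 ± 0.28 at Drd1 and by 0.74 ± 0.15 at Gpr6, and differed by -0.90 ± 0.10 at Drd2, where it was lower. At Pde10a probe A_52_P972559 it differed by 0.96 ± 0.31 and was not called (adjusted p = 0.0528 by limma). The Cy-3 signal of Drd1 and of that Pde10a probe was not well above background on any array, nor was that of Gpr6 on 2 arrays and of Drd2 on 1. Where only probes well above background in both dyes on every array were tested, 1 of the 6 remaining probes was called on the ratio, Adcy5 probe A_51_P199041 (limma adjusted p = 0.0278; 0.189% of all such probes).

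**Figure D3:**
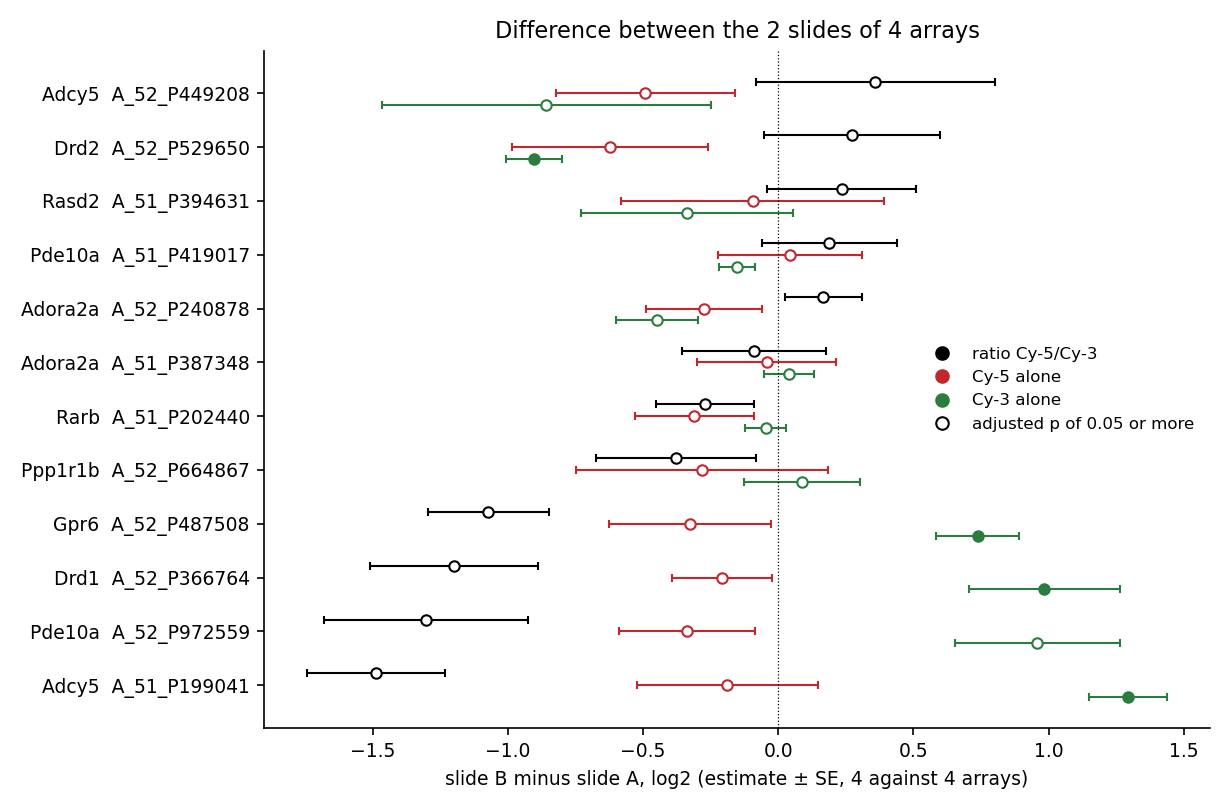
Difference between slide B and slide A, 4 arrays each, in log2 units (horizontal axis; estimate ± SE of the limma fit) for the ratio (black), Cy-5 alone (red) and Cy-3 alone (green) at the 12 probes; filled points had an adjusted p under 0.05. The 4 lowest ratios, from -1.49 to -1.07, go with Cy-3 differences from 0.74 to 1.29.

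The hemibrains were then compared with the median of each probe over the 10 arrays. On C10-434, C10-435 and C10-437, 7 of the 9 genes lay below their own median, while 46.6%, 42.6% and 60.3% of all genes did. On C10-416, 8 of the 9 genes lay above it, where 54.1% of all genes lay below. Which arrays held the most genes below their median changed with the processing: C10-434 alone with median centring (8 of 9), C10-435 and C10-437 with loess on top (7 of 9), C10-413 and C10-415 with normexp (9 of 9), and C10-423 in Cy-5 alone (9 of 9). On C10-434 the pan-neuronal genes lay at 0.99 above their own medians, against -0.50 for the 9 genes described. That last value is the one of Rarb, and the 9 genes ran from -1.88 at Drd1 to 0.10 at Rasd2. The other striatal projection neuron genes named below lay at -0.04 there, and the striatal interneuron genes at -0.72. The part of brightness in these values was not tested. The lowest value of 6 of the 12 probes fell on C10-423, namely both Adora2a probes, Drd2, Ppp1r1b, Rasd2 and Adcy5 probe A_52_P449208, as did that of 19.9% of the 11293 genes whose Cy-5 signal cleared the background everywhere. C10-434 held the lowest value of the probes of Drd1, Gpr6 and Rarb and of Pde10a probe A_52_P972559, against 10.4% of those genes. It also held the highest value of 2 of the 12 probes, against 19.4% of those genes.

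In Cy-5 alone the lowest level of 5 of the 12 probes fell on C10-423, against 14.9% of all genes. Its Cy-5 level lay below the median of the 10 arrays by -1.44 at Ppp1r1b, -1.44 at Rasd2, -0.89 and -0.76 at the 2 Adcy5 probes, -0.76 at Adora2a probe A_51_P387348, -0.72 at Pde10a probe A_51_P419017, -0.69 at Drd2 and -0.53 at Gpr6. At Drd1, Rarb and Adora2a probe A_52_P240878 it lay within 0.1 of the median, at -0.09, -0.02 and -0.0032, and Pde10a probe A_52_P972559 was highest on this array, at 0.92. C10-413 was at the other end, the highest array in Cy-5 for 5 of the 12 probes, against 20.6% of all genes. The Cy-3 level of the same probes also moved on these arrays, by -0.67 at Ppp1r1b and -0.40 at Rasd2 on C10-423, and by 0.54 and 1.04 on C10-413.

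**Figure D4:**
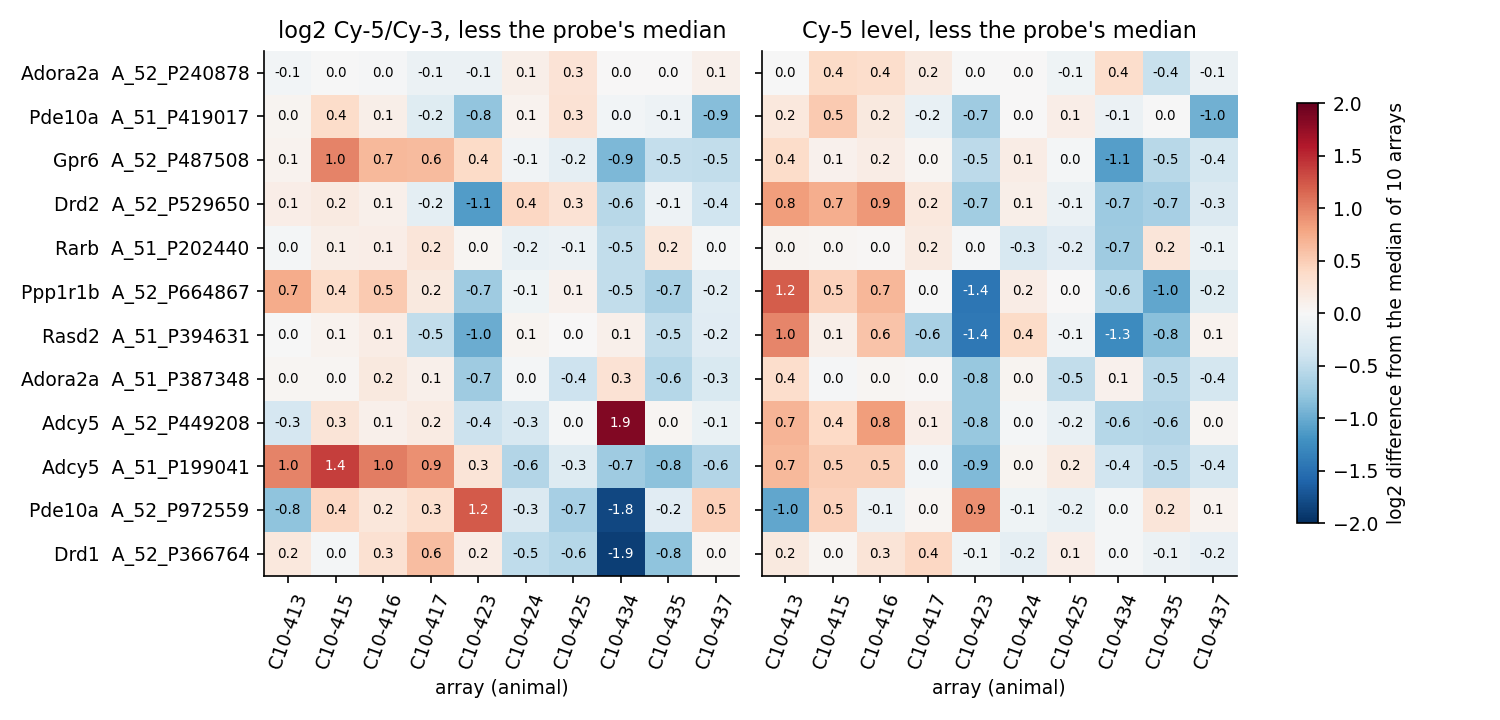
Difference of each of the 12 probes from its own median over the 10 arrays, in log2 units (colour and printed value), for the ratio (left) and the Cy-5 level less the median of its array (right). In Cy-5, C10-423 lies at -1.44 for Ppp1r1b and Rasd2 and near 0 for Drd1, Rarb and Adora2a probe A_52_P240878.

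In the ratio the markers of other cells moved on C10-423 too. The median difference from the gene's own median was -0.33 for the 6 pan-neuronal genes and -0.27 for the 9 striatal interneuron genes. It was -0.23 for the 6 oligodendrocyte genes, -0.22 for the 6 astrocyte genes and -0.11 for the 9 genes described. That last value is the one of Adora2a probe A_52_P240878. The 9 genes ran from -1.12 at Drd2 to 0.38 at Gpr6, with 5 below their median and 4 above. The cortical projection neuron genes lay at -0.02 and the cerebellar genes at 0.33. All 6 pan-neuronal genes lay below their median there. Of the striatal lists described below, the other striatal projection neuron genes lay at -0.04 on C10-423. In that list 6 of 12 genes were below their median, and 1 had its lowest value on this array. The direct pathway genes lay at 0.05 and the striatal lineage factors at 0.32. The dopamine and cAMP signalling genes lay at -0.17 and the 2 indirect pathway genes at -0.51. The part of these shifts in the values of C10-423 was not tested. On C10-437 the thalamic genes lay lowest of the marker lists, at -0.78, against -0.23 for the 9 genes described.

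Other genes of striatal projection neurons showed a similar excess in Cy-5. Of 15 such genes 12 could be named, and 11 were higher and 1 lower in Cy-5 (limma), with a median of 3.75, where 41.0% of all genes were higher and 39.8% lower. The highest named here were Arpp21, a cAMP-regulated phosphoprotein, with a mean log2 ratio of 8.02, and Rxrg, a retinoid X receptor, with 6.93. The lowest were Cnr1, the cannabinoid receptor, with 2.34, the kinase gene Dclk3 with 1.89 and the orphan receptor Gpr149 with -1.47. At least 4-fold higher were 10 of the 12, against 13.8% of all genes.

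Genes of the direct pathway were mixed. Of the 6 that could be named 4 were higher and 1 was lower in Cy-5, against 41.0% and 39.8% of all genes. Tac1, the precursor of substance P, had a mean log2 ratio of 5.66, Isl1, a transcription factor of these cells, 3.04, Chrm4, the muscarinic M4 receptor, 1.85 and Eya1 0.79. The transcription factor gene Ebf1 was lower, at -2.69, and the semaphorin receptor gene Plxnd1 did not pass the test (0.03, adjusted p = 0.796 by limma). Of 4 genes of the indirect pathway 2 could be named. Penk, the precursor of enkephalin, had 7.88 and the transcription factor gene Six3 1.41, and both were higher. Six3 cleared the background on 9 arrays in Cy-5 and 7 in Cy-3, and with normexp its mean log2 ratio was 0.29. The log2 ratio of Penk lay between 7.39 and 8.69, with C10-424 lowest.

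Of 19 genes of dopamine and cAMP signalling 14 were higher and 4 lower in Cy-5 (all genes 41.0% and 39.8%), with a median of 1.75. Cdk5r1, the activator of the kinase that phosphorylates DARPP-32, was highest with 6.30, followed by the phosphodiesterase gene Pde2a with 4.33 and Ptpn5, the striatum-enriched phosphatase, with 3.94. Lowest were Creb1, which encodes a transcription factor activated by cAMP signalling, with -0.71, Arpp19 with -0.71 and the phosphatase 1 subunit gene Ppp1cc with -0.28, a call lost under 2 of the 5 other scalings. On C10-423 lay the lowest value of 8 of these 19 genes, against 19.9% of the genes whose Cy-5 signal cleared the background everywhere. Of 13 transcription factors of the striatal lineage 9 were higher and 2 lower (all genes 41.0% and 39.8%), with a median of 1.23. Dlx5 had 3.35, Foxp2 3.22 and Bcl11b, which encodes CTIP2, 2.06, while Ikzf2 had -0.22 and did not pass the test, Meis1 had -1.15 and Ikzf1, the gene of Ikaros, had -2.98.

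**Figure D5:**
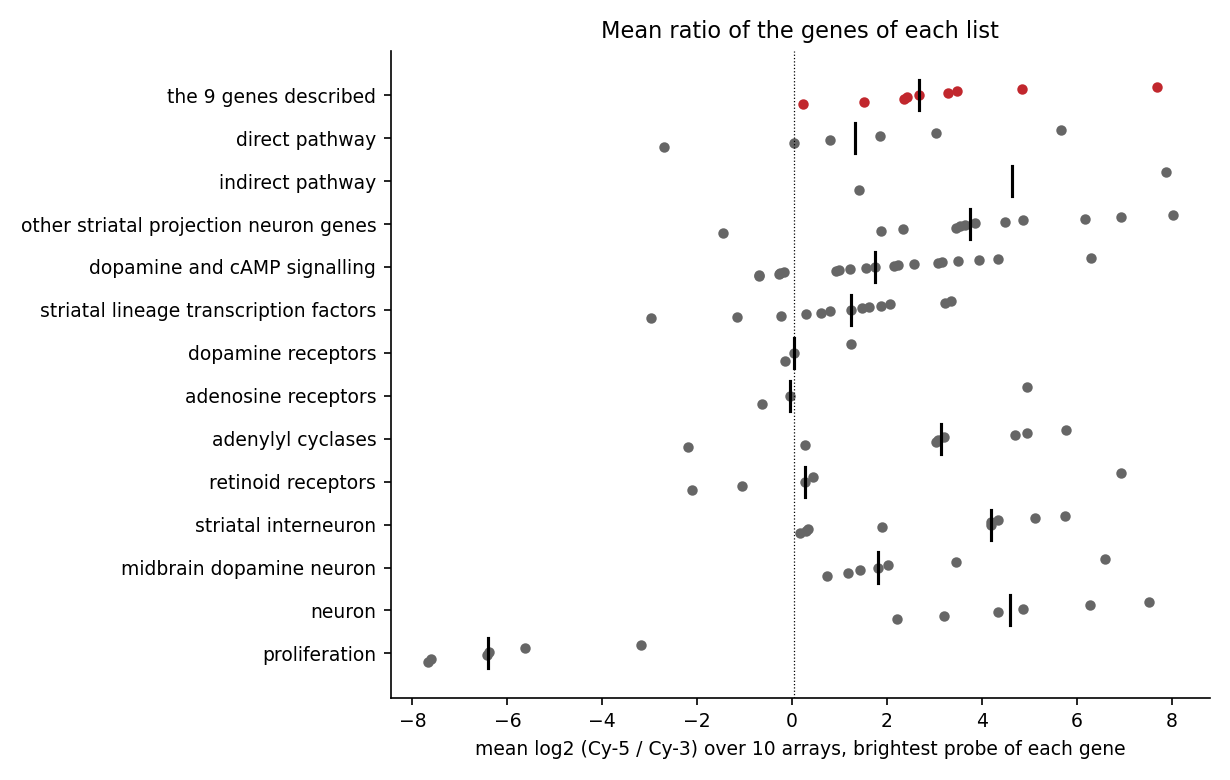
Mean log2 Cy-5/Cy-3 over 10 arrays (horizontal axis) of each named gene by its brightest probe, 1 point per gene, for the 9 genes described (red) and for the lists (grey); black bars are list medians and the dotted line is the median of all genes, 0.04. The medians are 2.68 for the 9 genes, 3.75 for the other striatal projection neuron genes and -6.41 for the proliferation genes.

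Close relatives of the 9 genes were less uniform. For all genes the shares were 41.0% higher and 39.8% lower in Cy-5. Among the other dopamine receptors Drd4 was higher in Cy-5, at 1.24, while Drd3 (0.04, adjusted p = 0.721) and Drd5 (-0.15, adjusted p = 0.264) did not pass the limma test. Among the adenosine receptors Adora1 was higher, at 4.95, Adora2b was lower, at -0.64, and Adora3 did not pass (-0.05, adjusted p = 0.542 by limma). Of the 8 other adenylyl cyclases 7 were higher, Adcy1 at 5.77, Adcy8 at 4.95, Adcy2 at 4.71, Adcy4 at 3.20, Adcy3 at 3.07, Adcy9 at 3.04 and Adcy6 at 0.26, and Adcy7 was lower at -2.20. The other retinoid receptors split, with Rxrg at 6.93, Rxrb at 0.44 and Rxra at 0.26 higher, and Rara at -1.05 and Rarg at -2.11 lower (Rara cleared the Cy-5 background on 2 arrays), so that of the 3 retinoic acid receptors Rarb alone was higher in Cy-5. Gpr12 (3.03), Rasd1 (3.69) and Ppp1r1a (4.23) were higher, and Gpr3 was not well above background in either dye on any array.

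Of the cells that meet striatal projection neurons, 6 of 9 striatal interneuron genes were higher in Cy-5, with a median of 4.20. Beside these counts, 41.0% of all genes were higher and 39.8% lower. Pvalb, Lhx8 and Npy were highest at 5.74, 5.12 and 4.34, and Nos1, Slc18a3 and Chat, the enzyme that makes acetylcholine, lowest at 0.33, 0.29 and 0.18, with no call. All 7 midbrain dopamine neuron genes were higher, with the dopamine transporter gene Slc6a3 at 6.59 and Th, which encodes tyrosine hydroxylase, at 3.46. Higher in Cy-5 were also 5 of 5 cortical projection neuron genes (median 4.64), 6 of 9 thalamic genes (0.54), 5 of 6 cerebellar (3.80), 5 of 6 microglial (2.32), 4 of 5 endothelial (4.62) and 3 of 4 choroid plexus genes (4.95).

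The genes most like Drd1 over the 10 arrays were Grik1 (Pearson r = 0.96), Cadps2 (0.96) and Gabrg1 (0.95), of 11285 other genes, and none of the 3 cleared the Cy-3 background on any array. The arrays share slides and brightness with these values. Without C10-434 the closest were Maob, Lmo3 and Prrg3, with r between 0.90 and 0.91. Over all 10 arrays r was -0.09 for Maob, 0.82 for Lmo3 and 0.84 for Prrg3. The genes most like Drd2 were Dhrs3 (0.98), Scamp3 (0.98) and Glmp (0.97), which were lower in Cy-5 than in Cy-3, at mean log2 ratios of -1.05, -0.74 and -1.49.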

How the data were processed

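RNA of 10 hemibrains was measured on dual dye Agilent whole mouse genome arrays. Features were extracted with Feature Extraction, version 10.10.1.1 per the file headers, whereas the methods name an earlier version. The methods place LOWESS normalization within each array in GeneSpring. The processed signals used here were already dye-normalized on all 10 arrays. The authors deposited linear intensities of each dye (median, background, background-subtracted and processed). Their deposited log ratio per spot is log10 of Cy-5 over Cy-3, within 0.001 of the ratio of the processed signals at 80.8% or more of the spots of each array and at most 0.261 from it. The authors' table holds log2 values that set against the same arrays were log2 Cy-5/Cy-3, with at least 98.8% of probes within 0.01. Its direction and scale are therefore known, and how its few other values differ is not.

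The log2 of processed Cy-5 over processed Cy-3 was taken here, leaving out control and outlier-flagged spots and averaging the remaining spots per probe. A probe was well above background where at least 0.5 of its spots carried the software's flag. Probes were named by accession through a RefSeq table (GRCm38.p6, names only; the headers name an older build), which named 27198 of 41174 probes (66.1%) as 18539 genes, and a gene was taken by its brightest probe. Ratios and slides were tested with limma 3.58.1 in R 4.3.3 (lmFit, eBayes, Benjamini-Hochberg, threshold 0.05, two-sided). On simulated data 81.5% of 200 probes changed by 1.0 (log2) were recovered among 40060 over 10 arrays, and 52.5% of 200 changed by 1.5 among 40299 between slides. The fold values with a replaced Cy-3 signal used loess and Aquantile scaling of each dye. There was no dye swap, so a dye effect of a probe stays in its ratio, and arrays give no read depth. Each array is 1 animal, whose number limits the precision.

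The genes named were all 9 members, the 3 highest and 3 lowest of each list described, their close relatives, and the 3 genes most correlated with Drd1 and with Drd2. The rule's remaining item is not reported here. Genes named without C10-434 and the values of Penk, Gabra6, Slc6a3 and Th fall outside this rule and were picked after their values were seen. Members and lists were chosen with earlier results of these data known. Settings tried were loess on top (span 0.3), median centring, normexp or floored subtraction (0.5) with an offset of 50, the authors' table, both dyes above background, all probes of a gene, 1.5-fold, slide as a random block, each slide alone and single arrays left out. Added after the data were seen were each dye alone, a 4-fold threshold and values without C10-423.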

Additional observations from a re-analysis of the deposited data

Results flagged for a closer look

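Of 24 sets of 10 values (the ratio and the Cy-5 level of each of the 12 probes), 1 held an array far from the others, where chance gives about 1 in 20. At Adcy5 probe A_52_P449208 the log2 ratio on C10-434 was 6.19, and on the other 9 arrays it lay between 3.90 and 4.59, a gap of 0.70 of the whole range. The Cy-3 signal of that spot, 18.1, was not well above background, and at the other Adcy5 probe C10-434 was next to lowest, at 3.98. What part the weak Cy-3 signal has in the value was not tested.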

How the results depend on the processing

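All 12 probes were higher in Cy-5 with loess on top, median centring, normexp, floored subtraction, the authors' table, slide as a random block, slide B alone, and without C10-434 or C10-423. Within slide A alone 11 were called, as were 11 at 1.5-fold, Adora2a probe A_52_P240878 being lost in both. Restricted to probes well above background in both dyes, 6 member probes were left and 6 were called, the most genes below their median on an array was 4 of 5, and 1 probe was called between slides. The median over the 9 genes was 2.05 with normexp and 3.29 with all probes of a gene averaged, against 2.68, and lay between 2.59 and 2.92 under the other settings. Between slides the count was 0 with each array left out (range 0 to 0) and 4 with Cy-3 alone. Slide as a block had a correlation of 0.03. No paired analysis was possible because all 10 samples form 1 group. Weak signals limit the ratios of Drd1, Gpr6 and Pde10a probe A_52_P972559.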
